A study of Mus musculus with 9 samples.

Results

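The ephrin, semaphorin, slit and netrin guidance genes are 68 mouse genes taken by symbol from the 55416 genes of the table. They comprise the Eph receptors and ephrins, the semaphorins of vertebrate classes 3 to 7, the plexins and neuropilins, the Slit ligands and Robo receptors, and the netrins and Unc5 receptors. No measured value was used to choose them. RNA-Seq was measured in 9 libraries of subcultured AdvSca1-SM cells, 3 per group. AdvSca1-SM cells are adventitial progenitors that express Sca1 and derive from smooth muscle. They were sorted from aortas and carotid arteries of SM22α-Cre YFP reporter mice, in which the smooth muscle promoter SM22α drives the Cre that marks the cells, and vessels of several animals were pooled. Stem cells received vehicle, TGF-β cells 5 ng/mL TGF-β1, and Both cells 5 ng/mL TGF-β1 together with 50 μM PFI-3, an inhibitor of the bromodomain through which the chromatin remodeler Brg1 reads acetylated histones. Every group received 0.1% DMSO and was harvested after 72 h. For all libraries the labels give maintenance in 10% FBS and then a growth arrest of 24 h in 0.1% FBS before treatment. Stem cells are described elsewhere as kept in stem cell medium, and whether they were growth arrested, and in which serum they spent the 72 h, is not clear from the sources used here. The stimulated cells were switched to DMEM with 0.1% FBS, so medium and TGF-β1 cannot be told apart in a comparison with Stem. Cells given PFI-3 without TGF-β1 were not analysed here.

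Guidance genes encode membrane-bound or secreted cues and their receptors, first described in growing axons and also used by vessels and connective tissue. Ephrins are membrane-bound ligands of Eph receptor tyrosine kinases, and both sides of the contact can signal. Semaphorins act through plexins, the secreted class 3 members mostly with a neuropilin as coreceptor. Slits are large secreted proteins that bind Robo receptors. Netrins are laminin-related secreted proteins, several of which bind Dcc, neogenin and the Unc5 receptors. In arteries these genes are best known from endothelial sprouting and from the arterial and venous identities marked by *Efnb2* and *Ephb4*.

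Total counts were between 35686291 and 47741128 per library. The second Stem library stood apart from the other two: its counts differed from theirs by a chi-square of 121 and 99.2 per degree of freedom, against 5.58 to 15.4 for the other pairs of replicates. The calls in Stem versus TGF-β that changed without it are named below, and values without it are given for some members. The cells' own marker *Ly6a* (Sca1) had a mean of 7635 ± 971 (SD, n = 3) normalized counts in Stem, beside 941 ± 133 in TGF-β, and *Cd34* had 379 ± 50.6 and 20.8 ± 5.79. Of 6 AdvSca1-SM markers 5 were tested: *Ly6a*, *Cd34*, *Pdgfra* and *Scara5* fell (log2 fold change -3.02 ± 0.12, -4.18 ± 0.18, -3.07 ± 0.06 and -3.61 ± 0.22), and *Pi16* rose (3.51 ± 0.06). Of 6 smooth muscle markers, *Tagln* and *Acta2* rose (1.42 ± 0.07 and 1.21 ± 0.08), *Myh11* fell (-1.58 ± 0.21), and *Cnn1*, *Smtn* and *Lmod1* were not called, with a median of -0.12 over the list. The RNA extraction text names hepatic tissue, whereas the hepatocyte markers *Alb*, *Apoa1*, *Ttr*, *Serpina1a* and *Cyp2e1* had group means under 1 normalized count and the sixth, *Apob*, had group means of 15.8 to 39.9. A normalized count is a read count scaled to the mean library, the error after a log2 fold change is its standard error, and values after ± elsewhere are SD over 3 libraries.

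Of the 68 members, 56 passed the filter on low counts and were tested among 14879 genes. The 12 others had at most 10 counts in any library: *Epha5*, *Epha6*, *Epha8*, *Epha10*, *Ntn5*, *Plxnb3*, *Robo3*, *Robo4*, *Sema3g*, *Sema4a*, *Sema4d* and *Slit1*. *Epha6* and *Ntn5* had no count in any library. They were read as below a set floor of 3 counts per library, which is between 2.63 and 3.26 normalized counts. The filter asks for enough counts in at least 3 libraries, the size of a group, whichever groups they belong to. A gene present in 1 group only can therefore pass through that group. *Ephb1* and *Sema4f* are the tested members with at most 3 counts in every library of a group.

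Cells given TGF-β1 differed from Stem cells in the level of many guidance transcripts. *Ntn4*, *Plxna4*, *Robo1*, *Robo2*, *Efna3*, *Unc5b*, *Unc5d* and *Sema4f* rose, and 18 members fell, among them *Ephb1*, *Ntn1*, *Slit3* and all 6 semaphorins of classes 5 and 6. At an adjusted p under 0.05 with at least a 2-fold change by edgeR's quasi-likelihood test, 26 of 56 tested members were called (46.4%), beside 25.1% of all genes tested. The 8 that rose were 14.3% of the members, beside 10.6% of all genes, and the 18 that fell were 32.1%, beside 14.5%. Without the fold-change minimum, 53 members had an adjusted p under 0.05 (94.6%), beside 75% of all genes, 18 of them higher and 35 lower. The Stem and TGF-β libraries did not overlap for 53 members, beside 76.8% of all genes. The median log2 fold change was -0.40 over the members and -0.0027 over all genes, and the median size of the change was 0.98 and 0.49. Without the second Stem library 28 members were called, 10 higher and 18 lower: *Sema3d* and *Slit2* were added to those that rose, *Sema4b* was added to those that fell, and *Sema3e* was no longer called. These are bulk cultures, so fewer cells with a transcript and less of it per cell cannot be told apart.

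**Figure D1:**
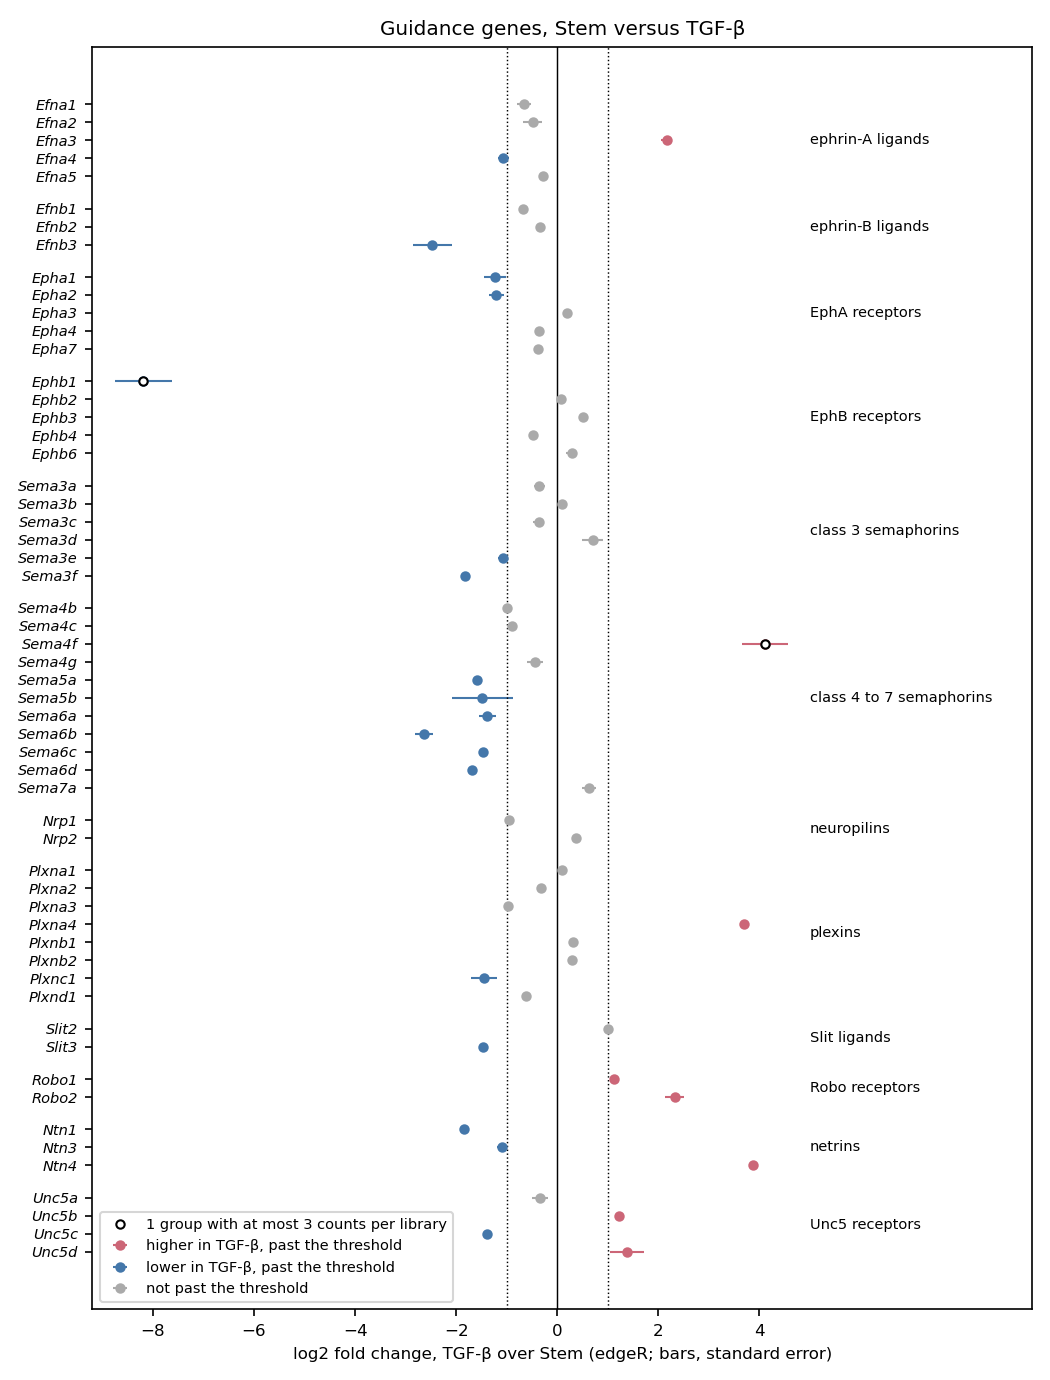
log2 fold change of the 56 tested guidance genes between Stem and TGF-β, by family, with the standard error as a bar (x axis, log2 scale; dotted lines at a 2-fold change; 3 libraries per group). The 8 genes that rose and the 18 that fell lie outside the dotted lines, and open circles mark *Ephb1* and *Sema4f*, whose fitted values depend on a group with almost no counts.

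Promoters are shown for the members with the largest rises and falls among those with at least 100 mean normalized counts over the 9 libraries. They were ranked by fitted fold change between Stem and TGF-β and not by level. The sequences are the 250 bases before the RefSeq start of *Ntn4*, *Ephb1* and *Sema6b*, in the assembly GRCm38.p6, read 5′ to 3′ on the strand of the gene, with the SMAD-type motif CAGAC or its complement GTCTG in capitals. *Ntn4* lies on the plus strand (chr10:93640799-93641048), *Ephb1* on the minus strand (chr9:102354694-102354943) and *Sema6b* on the minus strand (chr17:56140344-56140593, the first of 2 starts listed). *Plxna4* is named only.
Ntn4: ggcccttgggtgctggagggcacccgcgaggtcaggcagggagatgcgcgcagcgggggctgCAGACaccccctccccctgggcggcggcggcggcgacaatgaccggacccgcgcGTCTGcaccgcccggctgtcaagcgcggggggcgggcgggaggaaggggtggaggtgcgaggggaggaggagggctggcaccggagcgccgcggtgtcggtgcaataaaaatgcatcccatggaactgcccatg
Ephb1: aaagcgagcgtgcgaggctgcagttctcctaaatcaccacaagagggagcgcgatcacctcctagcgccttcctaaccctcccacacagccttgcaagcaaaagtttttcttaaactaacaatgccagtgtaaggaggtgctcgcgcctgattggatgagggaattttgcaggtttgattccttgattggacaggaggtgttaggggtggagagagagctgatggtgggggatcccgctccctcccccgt
Sema6b: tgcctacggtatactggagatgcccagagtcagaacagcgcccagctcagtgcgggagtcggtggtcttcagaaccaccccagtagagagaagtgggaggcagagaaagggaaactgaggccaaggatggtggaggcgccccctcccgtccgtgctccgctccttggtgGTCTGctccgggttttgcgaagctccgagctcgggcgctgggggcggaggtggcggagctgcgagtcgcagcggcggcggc

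The *Ntn4* window held 2 copies of CAGAC, that of *Sema6b* 1 and that of *Ephb1* none. RefSeq listed promoters for 59 of the 68 members. They covered 6 of the 8 members that rose, with 9 promoters, and 14 of the 18 that fell, with 17, since some genes have several starts. On both strands, CAGAC was found in 5 of 9 promoters of the members that rose and in 9 of 17 promoters of those that fell, beside 42.2% of all 32851 promoters. The AP-1 motif TGANTCA was found in 0 of 9 and 1 of 17, beside 6.7% of all. The E-box CAGCTG was found in 1 and 1, beside 13.0% of all, and the E-box CACGTG in 1 and 1, beside 6.0%. No motif searched contains another, and a match is a description of the window and not a binding site.

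The netrins exchanged their leading member. RNA of *Ntn4*, which encodes netrin-4, a laminin-related protein of basement membranes, was 14.8-fold higher in TGF-β. That of *Ntn1*, which encodes netrin-1, the founding secreted netrin, was 3.61-fold lower. *Ntn4* normalized counts were 106, 127 and 129 in Stem, 1752, 1869 and 1715 in TGF-β and 1768, 2012 and 1672 in Both. All TGF-β and Both libraries lay above all Stem libraries (edgeR log2 fold change 3.88 ± 0.09, adjusted p = 4.77e-12), and TGF-β and Both overlapped. *Ntn1* had 1610.1, 1538 and 1520.0 in Stem, 445, 451 and 397 in TGF-β and 538, 562 and 498 in Both. Here every Stem library was the higher (edgeR log2 fold change -1.85 ± 0.06, adjusted p = 9.58e-11), and the Both libraries lay above the TGF-β libraries. *Ntn3*, a further secreted netrin, fell as well, with 329, 366 and 332 in Stem, 159.7, 166 and 155 in TGF-β and 155, 184 and 188 in Both (edgeR log2 fold change -1.09 ± 0.10, adjusted p = 4.97e-07). In reads per kilobase of gene, scaled to library size (RPKM), *Ntn4* went from 0.782 ± 0.0834 in Stem to 11.5 ± 0.521 in TGF-β and *Ntn1* from 6.02 ± 0.185 to 1.67 ± 0.114. *Ntn4* was thus 11.5% ± 1.38 of the sum of both genes in Stem compared with 87.4% ± 0.502 in TGF-β and 85.1% ± 0.557 in Both, on lengths of all exons joined.

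Among the netrin receptors, *Unc5b* was the most abundant Unc5 gene by length and rose. The Unc5 receptors are known for repulsive responses to netrins, and *Unc5b* is known from endothelial tip cells. *Unc5b* had 4958, 4452 and 4543 in Stem, 11115, 10747 and 10892 in TGF-β and 9575, 9825 and 8999 in Both, with Stem lowest, Both between and TGF-β highest, and no overlap between any of the 3 groups (edgeR log2 fold change 1.23 ± 0.05, adjusted p = 3.23e-10). *Unc5c* fell, with 676, 785 and 784 in Stem, 302, 274 and 278 in TGF-β and 272, 239.9 and 264 in Both (edgeR log2 fold change -1.39 ± 0.08, adjusted p = 1.16e-08). *Unc5d* rose from low levels, with 11.5, 5.43 and 13.0 in Stem, 29.1, 26.4 and 23.4 in TGF-β and 8.10, 17.8 and 15.8 in Both (edgeR log2 fold change 1.38 ± 0.34, adjusted p = 0.00305). The Both libraries of *Unc5d* overlapped the Stem libraries. *Unc5a* had means of 138 ± 15.6, 109 ± 21.2 and 142 ± 19.2 and did not pass (edgeR log2 fold change -0.34 ± 0.16, adjusted p = 0.0737). Summed over the family, Unc5 levels were 19.8 RPKM in Stem, beside 43.4 in TGF-β and 37.9 in Both. Of the other netrin receptors, *Dcc* had group means of at most 1.76 normalized counts, and *Neo1* (neogenin) had 4463 ± 22.4 in Stem and 7755 ± 145 in TGF-β (edgeR log2 fold change 0.80 ± 0.04, adjusted p = 1.73e-09).

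**Figure D2:**
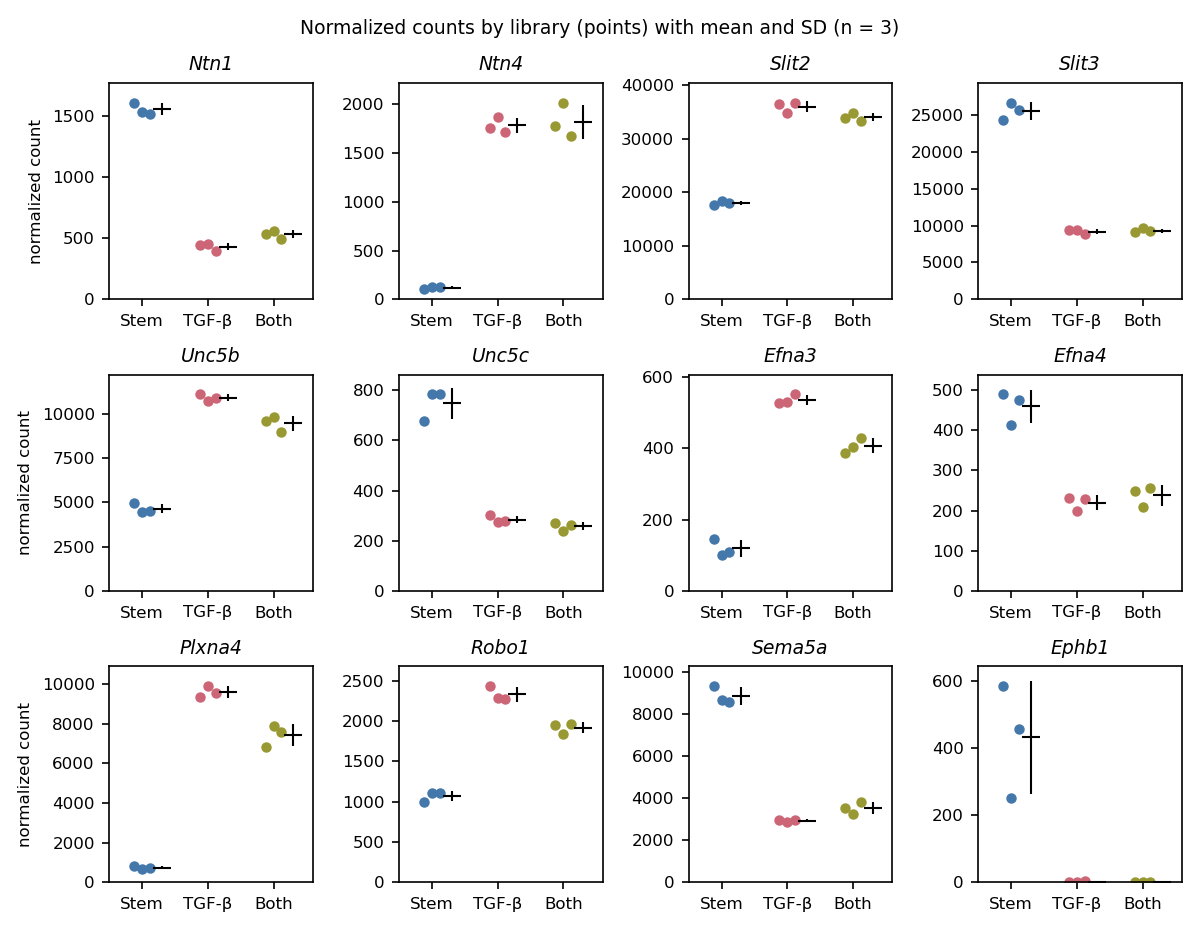
Normalized counts (y axis from 0, linear, its own range for each gene) of 12 guidance genes by group. Points are libraries and the black mark is the mean with SD (n = 3). *Ntn4*, *Slit2*, *Unc5b*, *Efna3*, *Plxna4* and *Robo1* lie higher in TGF-β than in Stem, and *Ntn1*, *Slit3*, *Unc5c*, *Efna4*, *Sema5a* and *Ephb1* lie lower.

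Of the Slit genes, *Slit3* fell and *Slit2* was higher by just under 2-fold, and both Robo receptors above the count filter rose. *Slit3* was by length the most abundant guidance gene in Stem and fell 2.78-fold. Its normalized counts were 24231, 26628 and 25636 in Stem, 9377, 9334 and 8793 in TGF-β and 9063, 9609.9 and 9201 in Both (edgeR log2 fold change -1.48 ± 0.05, adjusted p = 4.02e-11). *Slit2* had 17662, 18454 and 18028 in Stem, 36413, 34904 and 36747 in TGF-β and 33904, 34872 and 33329 in Both and stayed just under the 2-fold line (edgeR log2 fold change 0.997 ± 0.04, adjusted p = 2.58e-10), which it passed without the second Stem library (1.02 ± 0.04), without TGF-β 2 or without any 1 of the Both libraries. Stem did not overlap with TGF-β or Both for either gene. *Slit3* levels were 102 ± 4.82 RPKM in Stem compared with 36.7 ± 1.30 in TGF-β and 37.2 ± 1.14 in Both, and *Slit2* levels 17.2 ± 0.378, 34.4 ± 0.937 and 32.5 ± 0.745. On these lengths *Slit3* was 85.5% ± 0.322 of the sum of both genes in Stem, beside 51.6% ± 1.41 in TGF-β and 53.4% ± 0.451 in Both. On the length of the longest coding transcript the shares were 72.9%, 32.7% and 34.2%, so the fall in the share held on both lengths, and which Slit led in TGF-β depended on the length used.

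*Robo1*, the widely expressed Slit receptor, had 993, 1106 and 1112 in Stem, 2439.8, 2284 and 2277 in TGF-β and 1947, 1841 and 1965 in Both. The 3 groups did not overlap, with Both between Stem and TGF-β (edgeR log2 fold change 1.12 ± 0.05, adjusted p = 1.85e-09). *Robo2* was far lower in level and rose 5.01-fold, with 14.7, 15.2 and 18.4 in Stem, 85.2, 67.9 and 89.8 in TGF-β and 58.5, 69.1 and 60.6 in Both (edgeR log2 fold change 2.32 ± 0.20, adjusted p = 3.61e-07). *Robo4*, the endothelial Robo, had 1 count in 1 TGF-β library and none elsewhere. On joined exons the Robo sum was 1.60 RPKM in Stem compared with 3.57 in TGF-β and 2.92 in Both, well below the Slit sum of 119, 71.1 and 69.7. On the longest coding transcript *Slit3* had 118, 42.6 and 43.2 RPKM and *Slit2* 44.0, 87.8 and 83.0. The size of the fall in the Slit sum thus depended on the length used and was smaller on this one.

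Of the 17 semaphorins tested, 8 fell (47.1%, beside 14.5% of all genes) and 1 rose (5.88%, beside 10.6%). All 6 tested members of classes 5 and 6, which are transmembrane ligands, were among those that fell. *Sema5a*, which carries thrombospondin repeats, was the most abundant of them, with 9367, 8687 and 8606 in Stem, 2975, 2859 and 2983 in TGF-β and 3544, 3266 and 3811 in Both (edgeR log2 fold change -1.60 ± 0.06, adjusted p = 1.11e-10). *Sema6d*, a ligand of A-type plexins, had 1309, 1380.0 and 1356 in Stem, 432, 405 and 416 in TGF-β and 521, 479.7 and 533 in Both (edgeR log2 fold change -1.69 ± 0.06, adjusted p = 7.38e-11). For both genes every Stem library was above every other library, and Both lay above TGF-β without overlap. *Sema6b* fell 6.23-fold, with 331, 267 and 296 in Stem, 59.4, 41.6 and 43.0 in TGF-β and 64.8, 39.5 and 45.6 in Both (edgeR log2 fold change -2.64 ± 0.18, adjusted p = 3.95e-08). *Sema6c* had 431, 525 and 464 in Stem, 183, 166 and 166 in TGF-β and 160.3, 162 and 161 in Both (edgeR log2 fold change -1.46 ± 0.09, adjusted p = 2.11e-08). *Sema6a*, a plexin A2 and plexin A4 ligand, had 162, 224 and 185 in Stem, 82.0, 78.1 and 59.6 in TGF-β and 69.3, 56.3 and 73.7 in Both (edgeR log2 fold change -1.38 ± 0.16, adjusted p = 7.8e-06). In these 3 genes all TGF-β and Both libraries lay below all Stem libraries. *Sema5b* was close to the count filter, with a mean of 16.3 ± 12.3 in Stem and 5.91 ± 4.25 in TGF-β, and its groups overlapped (edgeR log2 fold change -1.48 ± 0.60, adjusted p = 0.0415). Its call was lost when Stem 1, TGF-β 2, TGF-β 3 or Both 1 was left out.

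Of the secreted class 3 semaphorins, *Sema3f* and *Sema3e* fell. *Sema3f*, which signals through neuropilin-2, had 1094, 1255 and 1173 in Stem, 343, 342 and 313 in TGF-β and 346, 354 and 301 in Both (edgeR log2 fold change -1.82 ± 0.08, adjusted p = 5.94e-10). *Sema3e*, which can bind plexin D1 directly, had 443, 555 and 469.5 in Stem, 241, 220.1 and 238 in TGF-β and 239, 236 and 205 in Both (edgeR log2 fold change -1.07 ± 0.10, adjusted p = 8.91e-07). Both genes separated Stem from the other groups without overlap. *Sema3a*, *Sema3b*, *Sema3c* and *Sema3d* stayed within 2-fold, between -0.37 ± 0.10 for *Sema3c* and 0.70 ± 0.21 for *Sema3d*. *Sema3d* had 1508, 3512 and 2059.8 in Stem, 3774, 3925 and 3805 in TGF-β and 3925, 4469 and 4006 in Both, with the second Stem library far above the others of its group (edgeR log2 fold change 0.70 ± 0.21, adjusted p = 0.01). Without that library it rose (edgeR log2 fold change 1.11 ± 0.10, adjusted p = 2.48e-07), and *Sema3e* was then just under the 2-fold line (-0.96 ± 0.09). Of class 4, *Sema4f* was the semaphorin that rose. It had 0, 2.17 and 3.25 in Stem, 38.8, 31.4 and 29.3 in TGF-β and 27.9, 35.5 and 25.5 in Both, from 5 counts in all Stem libraries and 97 in all TGF-β libraries, a ratio of 18.5 with an exact 95% interval of 7.66 to 58.2 that covers counting error only (edgeR adjusted p = 5e-06). *Sema4b* and *Sema4c* were lower in TGF-β by just under 2-fold (-0.99 ± 0.06 and -0.89 ± 0.05), and the GPI-anchored *Sema7a* was higher by less than 2-fold (0.64 ± 0.14). Summed per length, class 4 to 7 semaphorins went from 35.4 RPKM in Stem to 15.9 in TGF-β and 17.3 in Both, and the ranges of Stem and the other groups did not overlap. The class 3 sum was 19.4, 18.2 and 18.6.

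Among the semaphorin receptor genes, that of plexin A4 changed most. *Plxna4*, a receptor for class 3 and class 6 semaphorins, had 814, 680.2 and 732 in Stem, 9354, 9917 and 9528 in TGF-β and 6833, 7877 and 7571 in Both, 12.9-fold higher in TGF-β than in Stem (edgeR log2 fold change 3.69 ± 0.07, adjusted p = 9.15e-13). No library of 1 group reached those of another, and Both lay between Stem and TGF-β. *Plxnc1*, the receptor of semaphorin 7A, fell from low levels, with 33.5, 50.0 and 34.6 in Stem, 14.0, 13.2 and 15.6 in TGF-β and 17.1, 13.8 and 22.8 in Both (edgeR log2 fold change -1.45 ± 0.26, adjusted p = 0.000308). The plexins that were abundant by length moved little. *Plxnb2*, a class 4 semaphorin receptor, had 81.1 ± 2.07 RPKM in Stem and 99.2 ± 1.75 in TGF-β (log2 fold change 0.29 ± 0.04), and *Plxna1* had 33.8 ± 0.854 and 36.4 ± 0.341 (0.10 ± 0.04, but -0.01 when scaled by total counts). With a Stem level of 1.28 ± 0.117 RPKM and a TGF-β level of 16.5 ± 0.497, *Plxna4* stayed below both. *Plxna3* (-0.98 ± 0.06) and the coreceptor *Nrp1* (-0.96 ± 0.05) were lower in TGF-β at just under 2-fold, and *Nrp2* was higher (0.38 ± 0.08).

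The ephrins and Eph receptors held the largest single fall. *Ephb1*, an ephrin-B receptor, had 587, 253 and 459 in Stem, 0, 1.01 and 2.93 in TGF-β and 0 in all 3 Both libraries. It was thus present in every Stem library and close to absent in the rest, and in Stem the second library was the lowest. The Stem libraries held 1218 counts in all and the TGF-β libraries 4, a ratio of 319 with an exact 95% interval of 124 to 1174 for counting error only (edgeR adjusted p = 3.82e-07). Against a floor of 3 counts per library it was at least 157-fold lower in Both than in Stem. *Epha2* fell, with 1648, 999.7 and 1319 in Stem, 577, 542 and 599 in TGF-β and 668, 525 and 593 in Both (edgeR log2 fold change -1.21 ± 0.15, adjusted p = 1.15e-05). *Epha1* fell from low levels, with 45.0, 39.1 and 43.3 in Stem, 14.0, 22.3 and 17.6 in TGF-β and 15.3, 17.8 and 14.9 in Both (edgeR log2 fold change -1.23 ± 0.21, adjusted p = 0.000224). For both, all Stem libraries were above all others, and the second Stem library was again the lowest of its group. Without it the log2 fold changes were -8.46 for *Ephb1*, -1.37 for *Epha2* and -1.28 for *Epha1*, and all 3 kept their calls. The abundant receptors *Epha3*, *Ephb4* and *Ephb3* stayed within 2-fold, at 36.8 ± 3.78 and 42.2 ± 0.940 RPKM for *Epha3*, 23.3 ± 0.466 and 16.8 ± 0.467 for *Ephb4* and 8.15 ± 0.397 and 11.7 ± 0.228 for *Ephb3*.

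Of the ephrins, *Efna3* rose and its family member *Efna4* fell. Both encode GPI-anchored ligands of EphA receptors. *Efna3* had 146, 101 and 110.3 in Stem, 526, 529 and 552 in TGF-β and 387, 404 and 430.1 in Both, again with Both between Stem and TGF-β and no overlap (edgeR log2 fold change 2.17 ± 0.11, adjusted p = 3.1e-09). *Efna4* had 489.9, 414 and 475 in Stem, 232, 199 and 229 in TGF-β and 249, 208 and 255 in Both (edgeR log2 fold change -1.06 ± 0.10, adjusted p = 1.28e-06), and its call was lost without the second TGF-β library. *Efna3* was 14.5% ± 1.64 of the sum of both genes per length in Stem, beside 61.6% ± 1.93 in TGF-β and 53.0% ± 2.79 in Both. *Efnb3*, a transmembrane ephrin, fell from low levels, with 37.7, 20.6 and 33.5 in Stem, 5.40, 3.04 and 7.81 in TGF-β and 12.6, 5.92 and 7.90 in Both (edgeR log2 fold change -2.47 ± 0.39, adjusted p = 0.000108). The more abundant *Efnb2*, *Efnb1* and *Efna5* were lower in TGF-β by less than 2-fold (-0.34 ± 0.05, -0.68 ± 0.05 and -0.28 ± 0.05). Without overlap between Stem and TGF-β, the summed ephrin-B level was 22.5 RPKM in Stem and 16.2 in TGF-β, and the ephrin-A sum 20.6 and 18.4.

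Only 3 tested members had no adjusted p under 0.05 between Stem and TGF-β: *Ephb2*, *Sema3b* and *Unc5a*. A further 27 passed the adjusted p but changed by less than 2-fold, 10 of them higher and 17 lower in TGF-β.

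**Figure D3:**
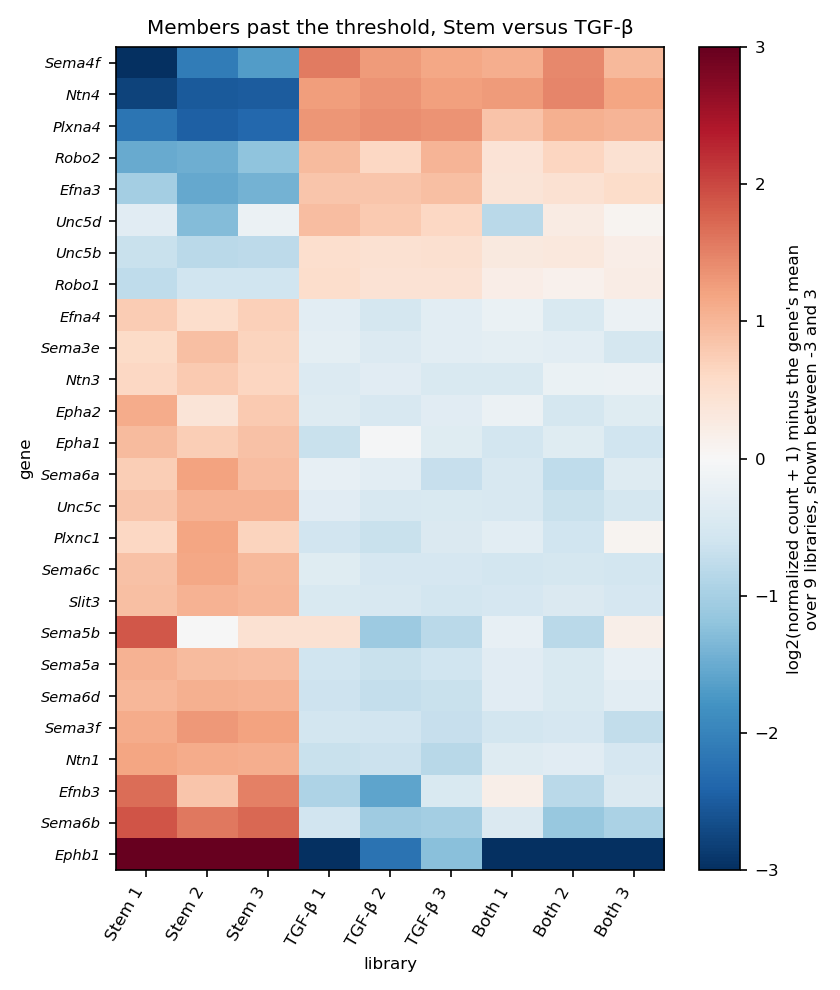
The 26 guidance genes called in Stem versus TGF-β (rows, ordered by log2 fold change) in the 9 libraries (columns). Colour is log2(normalized count + 1) minus the gene's mean over the libraries, shown between -3 and 3. The Both libraries resemble the TGF-β libraries in most rows, and the 3 Stem libraries stand apart in all rows but *Sema5b* and *Unc5d*.

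Differences between TGF-β and Both, which tell cells with TGF-β1 from cells with TGF-β1 and PFI-3, were small. In TGF-β versus Both, no member passed the 2-fold threshold by edgeR or DESeq2, beside 0.632% of all genes, and 22 members had an unadjusted p under 0.05 (39.3%), beside 24.1% of all genes. By adjusted p alone 12 members differed (21.4%, beside 8.92% of all genes). Of these, 4 were higher in Both (7.14%, beside 3.54% of all genes) and 8 lower (14.3%, beside 5.38%). For 25 members (44.6%) the TGF-β and Both libraries did not overlap, beside 32.7% of all genes, and all 12 were among them. The median log2 fold change was -0.03 over the members, and the median size was 0.14 beside 0.11 over all genes.

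The plexins *Plxna2*, *Plxnb1*, *Plxna4* and *Plxnd1*, the semaphorin *Sema3c*, the ephrin *Efna3* and the receptors *Robo1* and *Unc5b* were lower in Both than in TGF-β. *Plxna2* had 5239.7, 4857 and 5026 in Stem, 4047, 4256 and 3848 in TGF-β and 2785, 3139 and 2996 in Both (edgeR log2 fold change -0.45 ± 0.05, adjusted p = 0.000369). *Plxnb1*, a class 4 semaphorin receptor, had 484, 539 and 454 in Stem, 630.2, 624 and 579 in TGF-β and 425, 474 and 423 in Both (edgeR log2 fold change -0.47 ± 0.08, adjusted p = 0.00258). *Plxna4*, with the library values given above, was lower as well (edgeR log2 fold change -0.37 ± 0.06, adjusted p = 0.00312). For these 3 genes and for *Robo1* (edgeR log2 fold change -0.28 ± 0.05, adjusted p = 0.00551) the call was kept whichever library was left out. *Plxnd1*, a receptor of semaphorin 3E in vessels, had 1414, 1392 and 1372 in Stem, 946, 864 and 907 in TGF-β and 648, 777 and 774 in Both (edgeR log2 fold change -0.31 ± 0.07, adjusted p = 0.0173). *Sema3c*, a secreted semaphorin, had 782, 1078 and 869 in Stem, 734, 663 and 716 in TGF-β and 474, 542 and 522 in Both (edgeR log2 fold change -0.46 ± 0.10, adjusted p = 0.0185). *Efna3* (edgeR log2 fold change -0.40 ± 0.09, adjusted p = 0.0215) and *Unc5b* (edgeR log2 fold change -0.21 ± 0.05, adjusted p = 0.0195) complete the genes that were lower. Their calls and those of *Plxnd1* and *Sema3c* were each lost without at least 3 of the single libraries.

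The 4 members that were higher in Both were *Ntn1*, *Sema5a*, *Sema6d* and *Nrp1*. Their edgeR log2 fold changes were 0.30 ± 0.07 (adjusted p = 0.0156), 0.27 ± 0.06 (adjusted p = 0.0111), 0.29 ± 0.06 (adjusted p = 0.00951) and 0.18 ± 0.05 (adjusted p = 0.0331). *Nrp1*, a coreceptor for class 3 semaphorins and for VEGF, had 7482, 7782 and 7375 in Stem, 4128, 3701 and 3796 in TGF-β and 4566, 4306 and 4308 in Both. Over Stem versus TGF-β, which shares the TGF-β libraries, the log2 fold changes of these 4 were -1.85 ± 0.06, -1.60 ± 0.06, -1.69 ± 0.06 and -0.96 ± 0.05. Those of *Plxna4*, *Efna3*, *Unc5b* and *Robo1* were 3.69 ± 0.07, 2.17 ± 0.11, 1.23 ± 0.05 and 1.12 ± 0.05. For *Plxna2*, *Plxnd1* and *Sema3c* both values were negative (-0.32 ± 0.05, -0.62 ± 0.07 and -0.37 ± 0.10 in Stem versus TGF-β), and *Plxnb1* had 0.31 ± 0.08. *Ntn4* and *Slit3* are examples with a large difference from Stem and a TGF-β versus Both value near 0 (0.03 ± 0.07 and 0.02 ± 0.05), whose sign changed when some single libraries were left out. The calls of *Nrp1* and *Ntn1* were each lost without at least 3 of the single libraries, and those of *Sema5a* and *Sema6d* without TGF-β 2. The number of members called depended on which libraries were kept, with 7 when TGF-β 2 was left out, 6 when TGF-β 3 was and 6 when Both 1 was.

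**Figure D4:**
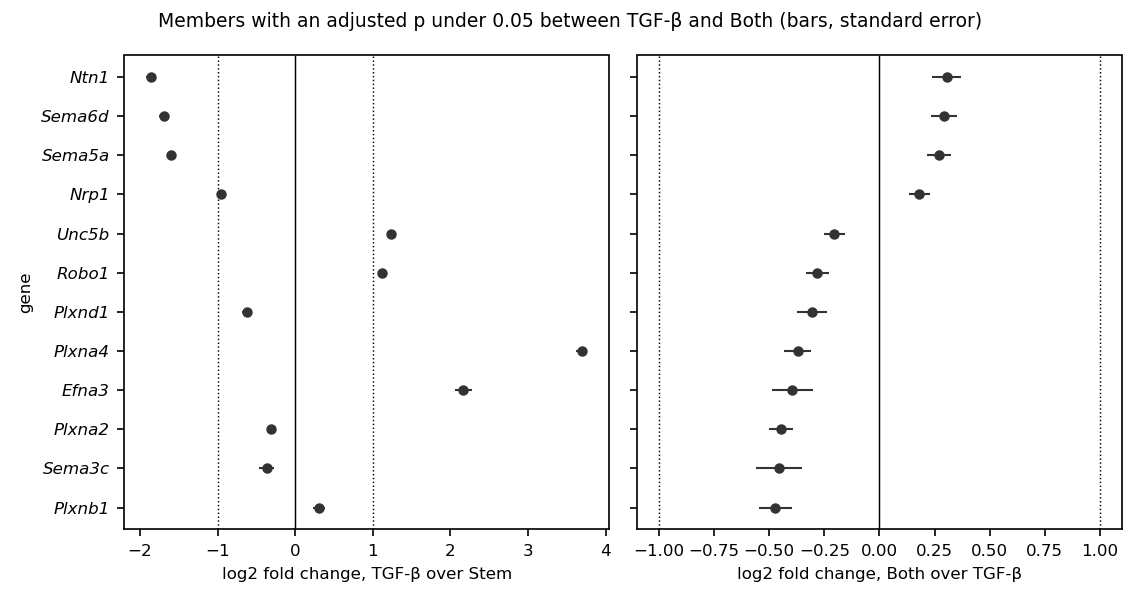
The 12 guidance genes with an adjusted p under 0.05 between TGF-β and Both. The left panel gives the log2 fold change of TGF-β over Stem and the right panel that of Both over TGF-β (log2 scales of different width; bars, standard error; dotted lines at a 2-fold change; 3 libraries per group). The right-hand values lie between -0.47 and 0.30, all inside the dotted lines, and the panels share the TGF-β libraries.

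Compared directly with Stem, Both cells had 22 members past the threshold (39.3%, beside 22.8% of all genes). Of these 6 were higher (10.7%, beside 9.55%) and 16 lower (28.6%, beside 13.2%). Past the threshold in the same direction in Stem versus TGF-β were 21 of them, and the 2 comparisons share the Stem libraries. *Robo1*, *Unc5d*, *Efna4*, *Ntn3* and *Sema5b* passed only against TGF-β, with log2 fold changes against Both of 0.84 ± 0.05, 0.46 ± 0.38, -0.95 ± 0.10, -0.96 ± 0.09 and -1.33 ± 0.57. *Sema4b* passed only against Both, at -1.02 ± 0.06 beside -0.99 ± 0.06 against TGF-β, and lost the call without Stem 1, Stem 3 or Both 1. Of the large changes, *Ntn4* had 3.91 ± 0.09, *Plxna4* 3.32 ± 0.07 and *Efna3* 1.77 ± 0.11 against Both.

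Of 25 relatives outside these families (netrin receptors other than Unc5, repulsive guidance molecules, Flrt and Lrig proteins, cell adhesion partners and others), 19 were tested. In TGF-β 6 of them rose (31.6%, beside 10.6% of all genes) and 5 fell (26.3%, beside 14.5%). *Nrcam*, an adhesion molecule of the semaphorin receptor complex, rose from 22.5 ± 2.51 to 159 ± 26.6 normalized counts (edgeR log2 fold change 2.81 ± 0.20, adjusted p = 7.28e-08). *Gpc1*, a heparan sulfate proteoglycan that binds Slits, rose (edgeR log2 fold change 1.94 ± 0.05, adjusted p = 1.53e-11), as did *Flrt2*, a Unc5 ligand (edgeR log2 fold change 1.14 ± 0.06, adjusted p = 8.94e-09), *Lrig1* and *Rtn4r*. *L1cam* rose at counts close to the filter, from 3.55 ± 1.56 to 11.1 ± 3.13 (edgeR log2 fold change 1.62 ± 0.53, adjusted p = 0.0157). *Draxin*, a netrin antagonist, fell from 50.3 ± 7.22 to 5.11 ± 1.74 (edgeR log2 fold change -3.27 ± 0.28, adjusted p = 4.34e-07). It had 4, 7 and 4 read counts in TGF-β and 9, 6 and 7 in Both, and passed the filter through Stem only. The neogenin ligands *Rgma* (-1.26 ± 0.10) and *Rgmb* (-1.15 ± 0.06), *Flrt1* and *Plxdc1* fell as well. Between TGF-β and Both none of the 19 passed the 2-fold threshold, and 4 had an adjusted p under 0.05 (21.1%, beside 8.92% of all genes): *Nrcam* and *Rtn4* were lower in Both (-0.55 ± 0.15 and -0.15 ± 0.04), and *Flrt2* and *Rgmb* higher (0.27 ± 0.06 and 0.24 ± 0.06).

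Of 49 cytoplasmic effectors of guidance receptors, 45 were tested. In TGF-β 8 rose (17.8%, beside 10.6% of all genes) and 3 fell (6.67%, beside 14.5%), so that 24.4% were called, near the 25.1% of all genes. Those that rose include the Rac exchange factors *Tiam1* (1.37 ± 0.04) and *Vav2* (1.86 ± 0.07), the ephexin *Ngef* (3.19 ± 0.26), the kinases *Fyn* and *Limk2*, the plexin-associated oxidase *Mical1* and the collapsin response mediators *Crmp1* (2.89 ± 0.25) and *Dpysl3*. *Rnd3* (-1.85 ± 0.06), the netrin pathway exchange factor *Trio* (-1.07 ± 0.05) and the Slit-Robo GTPase-activating protein *Srgap3* (-2.09 ± 0.08) fell. The median log2 fold change was 0.07 over these genes and 0.48 over the relatives, beside -0.0027 over all genes. In TGF-β versus Both none passed the 2-fold threshold, and 4 (*Mical1*, *Limk2*, *Srgap2* and *Pdzrn3*) had an adjusted p under 0.05, which is 8.89%, about the 8.92% of all genes.

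Since many guidance genes are known from endothelial and neural cells, markers of other cell types were read beside them. Of 9 endothelial markers 6 were tested, *Erg* (100.4 to 1346 normalized counts) and *Kdr* rose, and *Tek* and *Emcn* fell. The summed endothelial level was 206 to 447 in Stem, 1377 to 1545 in TGF-β and 1095 to 1270 in Both. In the stimulated groups it was mostly *Erg*, which was the smaller part of it in Stem, while *Pecam1*, *Cdh5* and *Tie1* had group means under 10. Of 6 neuronal markers 3 were tested and *Stmn2* and *Syt1* rose, with *Rbfox3* and *Snap25* under 1, and the sum was 1946 to 2254, 2633 to 2860 and 2175 to 2715, mostly *Tubb3*. Of 5 Schwann cell markers 3 were tested and *S100b* rose, with *Sox10* at 0 in all libraries, and the sum was 161 to 212, 560 to 657 and 409 to 447. Of 4 macrophage markers 2 were tested and both, *Cd68* and *Csf1r*, rose, with *Adgre1* at 0, and the sum was 19.6 to 41.9, 71.0 to 102.5 and 152 to 156. None of 4 epithelial markers was tested. The part of these genes in the changes above was not tested.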

How the data were processed

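The authors deposited whole-number counts of reads for each gene in each library, not normalized. The paper names Flexbar and STAR, and the submitters' processing notes name HISAT2 2.2.1, SAMtools 1.13 and HTSeq 0.11.3, all with GRCm39, so the aligner is uncertain. How strand and reads with several alignments were handled is not given in the sources used here, so overlapping antisense genes and near-identical copies cannot be told apart. A symbol was found for 52083 genes.

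The tool was edgeR 4.0.16 (R 4.3.3), with filterByExpr, TMM factors of 0.967 to 1.08 and a single quasi-likelihood fit by group over the 9 libraries. Benjamini-Hochberg adjustment covered all 14879 genes, and members were read out of that table. Calls needed an adjusted p under 0.05 and a log2 fold change below -1 or above 1. Normalized counts refer to a TMM-scaled library of 41184338 reads, and the prior count was 0.125. RPKM values used the joined exons of each gene in GENCODE M21 (GRCm38), or its longest coding transcript, and serve only to compare levels between genes. Labels do not tie replicates to separate animals, so p-values measure the spread between these libraries.

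On simulated counts for Stem versus TGF-β, 200 of 14106 genes were changed, whereas 25.1% of all tested genes were called in the measured counts. Of the 200 changed genes, edgeR recovered 198 and DESeq2 1.42.0 recovered 196, both with 0 false calls past the threshold. The simulated counts were drawn with the spread that edgeR had fitted to these data. Every planted change lay beyond the 2-fold line, in genes that were not at low counts. High recovery and few false calls were therefore largely built in. No simulated library stood apart as the second Stem library did. Recovery of genes near the 2-fold line or at low counts was not tested, so the simulation does not bear on those calls. In TGF-β versus Both, simulated without a difference, edgeR gave 0 and DESeq2 3 false calls by adjusted p alone. The closing section gives the alternatives. Every library is given for members past the threshold in Stem versus TGF-β with at least 20 mean normalized counts in the higher group, for those with an adjusted p under 0.05 in TGF-β versus Both and, chosen after their values were seen, for *Slit2* and *Sema3d*. The members, lists and markers were chosen with earlier results of these data known.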

Additional observations from a re-analysis of the deposited data

How the results depend on the processing

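The alternatives were DESeq2, DESeq2's size factors, total counts, no filter, a filter at a mean of 10 counts, only the 6 libraries compared, a replicate block, another prior count (2), no fold-change minimum, TREAT against 2-fold, and leaving out each library. Of the 56 tested members, none that was called in a comparison changed direction in it. Scaling by total counts turned *Ephb2* (-0.0434), *Plxna1* (-0.0142) and *Sema3b* (-0.0219) in Stem versus TGF-β and *Unc5a* in Stem versus Both (also without some single libraries), and leaving out 1 library turned 14 members in TGF-β versus Both, all from values within 0.18 of 0 on the log2 scale. There *Slit3* ranged from -0.0111 to 0.0365 and *Ntn4* from -0.0505 to 0.0867. The number of members past the threshold was 26 in Stem versus TGF-β, 0 in TGF-β versus Both and 22 in Stem versus Both. Without the fold-change minimum it was 53, 12 and 50. Tested against a 2-fold change by TREAT it was 18, 0 and 16, and under the other alternatives that keep every library of the comparison it was 25 to 30, 0 and 22 to 26. Leaving out 1 library gave 25 to 28, 0 to 0 and 20 to 23. The 12 members with an adjusted p under 0.05 in TGF-β versus Both were 12 to 17 under the alternatives that keep every library and 6 to 17 when 1 library was left out, with 7 without TGF-β 2, 6 without TGF-β 3 and 6 without Both 1. By TREAT, *Efna4*, *Epha1*, *Epha2*, *Ntn3*, *Plxnc1*, *Sema3e*, *Sema5b* and *Unc5d* lost the call in Stem versus TGF-β, so their changes were not shown to exceed 2-fold. *Epha1*, *Epha2*, *Plxnc1*, *Sema3e*, *Sema4b* and *Unc5b* lost it by TREAT in Stem versus Both. Apart from TREAT, 23 of the 26 members called in Stem versus TGF-β kept the call in every alternative run and *Sema3e*, *Efna4* and *Sema5b* lost it without 1 library. Of the 12 in TGF-β versus Both, *Plxna2*, *Plxna4*, *Plxnb1* and *Robo1* kept it, and *Unc5b* lost it under total counts too. In Stem versus Both, *Epha2* lost it without Stem 1, *Plxnc1* without Stem 2 or Both 2, *Sema3e* without Stem 2, *Sema4b* without Stem 1, Stem 3 or Both 1 and *Unc5b* under total counts, and 17 of 22 kept it. *Slit2*, *Sema4b*, *Plxna3*, *Nrp1*, *Sema4c* and *Sema3d*, not called in Stem versus TGF-β, were called in at least 1 alternative that kept the fold-change minimum.

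Scaling by total counts shifted the median over all genes in Stem versus TGF-β from -0.0027 to -0.12 (log2), and that over the members from -0.40 to -0.52. Replicate numbers paired the libraries only in part. The correlations across genes of same-numbered libraries' deviations from their group means were between -0.05 and 0.20. Libraries numbered 2 correlated best with each other (0.17 for Stem and TGF-β, 0.20 for Stem and Both, 0.14 for TGF-β and Both). Their correlations with libraries of other numbers were all negative. Since deviations were taken from each group's own mean, these signs follow in part from the positive values and are not separate evidence of pairing. The same-numbered correlations of numbers 1 and 3 were between -0.05 and 0.11, and not every library correlated best with its own number. With the replicate block the counts were 26, 0 and 23, and 16 in place of 12 by adjusted p in TGF-β versus Both. With 35686291 to 47741128 counts per library, a gene with no count was read as below a set floor of 3 counts per library, not as absent. Changes of *Sema5b*, *Unc5d* and *Efnb3* rest on group means of at most 30.6 normalized counts.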
